A study of Solanum tuberosum with 6 samples.

Results

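The 200 most abundant mRNAs of total potato RNA were followed into RNA from purified mitochondria, gene by gene. They are the 200 of 15181 listed genes with the highest mean level over the 3 total RNA libraries, where a level is counts per 1000000 counts of its library (CPM). Their total RNA levels therefore chose them, and those levels are given as a description. The study sequenced polyadenylated RNA of wild-type (WT) Solanum tuberosum in 6 libraries, 3 of total RNA (TotRNA) and 3 of RNA from purified mitochondria (MitoRNA). RNA of both kinds was extracted with Tri Reagent, treated with DNase and enriched on oligo-dT beads, and total RNA had an added change to the protocol to remove starch, so this change and the kind of RNA cannot be told apart. Neither the organ nor the age of the plants is given, nor whether a group's 3 libraries came from separate preparations, so a p-value here reflects library-to-library spread that could be technical.

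Most proteins of plant mitochondria are encoded in the nucleus, translated in the cytosol and imported. A part of their mRNAs, and ribosomes with them, is found at the outer membrane of the organelle. Oligo-dT beads retain mRNAs with a poly(A) tail, which are mainly made in the nucleus, while stable mRNAs of plant mitochondria carry no such tail. In a cell's mRNA a small number of genes makes up a large part of all molecules. Carry-over of bulk cytosolic RNA with an organelle would therefore be seen first among these dominant mRNAs. A selective association need not be, as it can concern mRNAs of any level. Which of these applied to any gene was not tested.

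The libraries held 12799068 to 34776699 counts of MitoRNA and 54599781 to 85355383 counts of TotRNA. The lowest count of any of the 200 genes in any library was 172, whose counting error is 7.62%, so depth does not limit the comparisons below, and intervals of this kind cover counting error only. The deposited tables list genes with at least 50 counts in every TotRNA library, which touches none of the 200 but means that ranks in MitoRNA are ranks among listed genes. Levels and shares are likewise taken of the counts of listed genes. A gene abundant in MitoRNA but under that limit in TotRNA would be missing from the MitoRNA totals. How much this changes the shares was not tested. The IDs are not paired with names in the files, and looking them up among 32873 RefSeq genes of potato gave 0 matches, so genes are called by their rank in TotRNA (rank 84 stands for the gene at that rank), and no function can be given for them. Gene lengths were not used here. A level per library mixes the number of molecules with their length, so ranks order reads, not molecules, and comparisons are made for the same gene between libraries.

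As a body, the 200 mRNAs were about as large a part of the listed counts of MitoRNA as of those of TotRNA. They held 32.0%, 26.6% and 29.1% of the counts of listed genes in TotRNA (replicates 1 to 3) and 28.8%, 28.1% and 30.1% in MitoRNA. The means were 29.2% ± 2.73 and 29.0% ± 1.01 (SD, n = 3 each), and the MitoRNA values lay inside the range of the TotRNA values. The choice of the genes favours TotRNA here. When the 200 genes were chosen on 1 TotRNA library alone, their share in the other TotRNA libraries and in MitoRNA averaged 26.7% and 28.2% for the choice on replicate 1, 29.2% and 27.6% for replicate 2, and 27.9% and 29.3% for replicate 3. The sign of the difference thus turned with the library that made the choice.

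The share was also read by rank group, where the choice and order of the genes by TotRNA level favour TotRNA most at the very top. The 20 most abundant mRNAs held 11.5%, 8.18% and 9.54% of TotRNA and 8.47%, 7.69% and 8.71% of MitoRNA, so the groups overlapped, and the highest value was that of TotRNA replicate 1. The 50 genes at ranks 51 to 100 held 5.97%, 5.92% and 6.33% of TotRNA and 6.86%, 7.34% and 7.28% of MitoRNA, so all 3 MitoRNA libraries lay above all 3 TotRNA libraries. The other groups overlapped, with means of 5.69% and 5.55% at ranks 21 to 50 and of 7.72% and 8.01% in the last 100 genes, in TotRNA and MitoRNA respectively.

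Concentration can also be measured with each library ranked by itself, which does not use the choice of the 200. It still uses the listed genes alone, which were listed by their TotRNA counts. The own 200 most abundant mRNAs of a library held 31.7%, 30.5% and 31.8% of MitoRNA and 32.5%, 27.1% and 29.8% of TotRNA. The difference of 1.53 percentage points was within the spread of the libraries (2-sided exact permutation test, p = 0.5, n = 3 each, where 0.1 is the smallest p that 3 against 3 libraries allow). The own 1000 most abundant mRNAs held 60.3%, 59.4% and 61.0% of MitoRNA and 58.6%, 53.9% and 57.5% of TotRNA, without overlap, and this comparison reached that smallest p (exact p = 0.1). Adjusted over the 8 list sizes from 1 to 1000 genes, the exact permutation p was 0.8 for 1000 genes and 1 for 200 genes. Seen from the other side, 50% of the counts were held by 576 to 623 genes in MitoRNA and by 631 to 823 genes in TotRNA (exact p = 0.1).

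By rank, 153 of the 200 mRNAs were also among the 200 most abundant of MitoRNA, taken over the mean of its 3 libraries. Of the 47 that were not, 34 stood between MitoRNA ranks 200 and 500, 8 between ranks 500 and 1000 and 5 beyond rank 1000. Most of those that left came from the lower part of the list, 40 from below TotRNA rank 100 and 7 from ranks 1 to 100. In all, 79 of the 200 moved up, 115 moved down and 6 kept their rank, and 68 moved by at most 20 places. Genes can only leave a list of this kind downwards, and 34 genes moved down by over 100 places against 1 that moved up as far. Of shorter lists of TotRNA, 6 of the top 10 and 12 of the top 20 (60.0% each), 36 of the top 50 (72.0%) and 79 of the top 100 (79.0%) were in the MitoRNA list of the same length, against 76.5% of the top 200. Over the 200 genes, Spearman's rho between both mean levels was 0.73, a description across genes, which are not independent. Library by library, 117 of the 200 were in the top 200 of all 3 MitoRNA libraries and 26 in that of none, while 132 were in the top 200 of all 3 TotRNA libraries that chose them. At the threshold itself the levels differed little. The last 2 genes inside had mean TotRNA levels of 630 and 626 CPM, and the first 2 outside had 626 and 626 CPM.

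**Figure D1:**
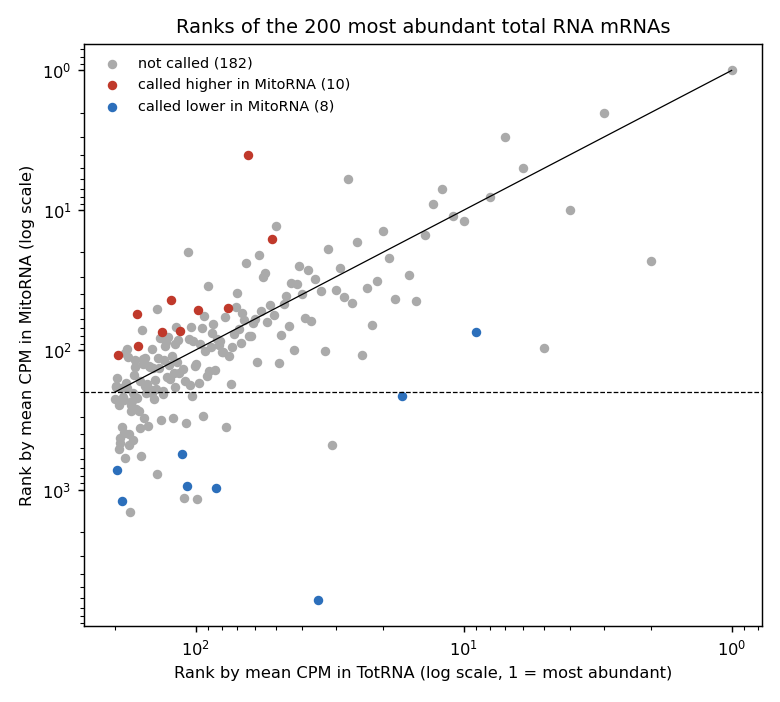
Rank of each of the 200 mRNAs by mean CPM in TotRNA (horizontal, log scale) and in MitoRNA (vertical, log scale), both running from low to high abundance, with equal ranks on the solid line and MitoRNA rank 200 at the dashed line. The points follow the solid line, 153 lie above the dashed line, and the blue point at the bottom is the gene at TotRNA rank 35, which stood at MitoRNA rank 6123.

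How much of this turnover also occurs between replicates was read from the own top 200 lists of the single libraries. A pair of TotRNA libraries shared 147 to 163 of 200 genes (3 pairs), a pair of MitoRNA libraries 135 to 171 (3 pairs), and a TotRNA with a MitoRNA library 123 to 159 (9 pairs). The ranges overlapped: the list of MitoRNA replicate 3 shared 159 genes with TotRNA replicate 2 but 135 with MitoRNA replicate 1. The 200 genes chosen on TotRNA replicate 1, 2 or 3 alone kept 158, 165 and 161 members in the top 200 of the other TotRNA libraries' mean, and 145, 145 and 158 in that of MitoRNA. Turnover into MitoRNA was therefore at most 20 genes larger than turnover between TotRNA libraries. Among the top 20 of single libraries, pairs of TotRNA libraries shared 14 to 16 genes, pairs of MitoRNA libraries 15 to 17, and mixed pairs 10 to 14.

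**Figure D2:**
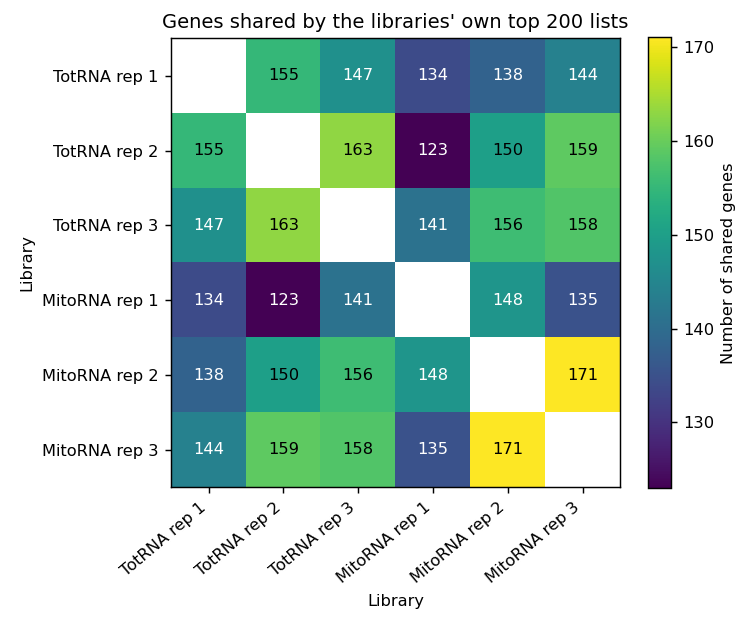
Number of genes shared between the own top 200 lists of each pair of libraries, with libraries on both axes and colour for the number. MitoRNA replicates 2 and 3 share the most (171), and MitoRNA replicate 1 shares the fewest with TotRNA replicate 2 (123).

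A core of dominant mRNAs stood near the top of every library. Of the 200 genes, 99 were in the top 200 of all 6 libraries, 19 in the top 50 of all 6, and 8 in the top 20 of all 6. These 8 were the genes at TotRNA ranks 1, 3, 4, 6, 8, 10, 11 and 12. The most abundant mRNA of TotRNA was also the most abundant of MitoRNA by mean level. It stood at 9169, 10227 and 11894 CPM in TotRNA (replicates 1 to 3) and at 13049, 9998 and 12067 CPM in MitoRNA. The groups overlapped, and it stood at rank 1, 2 or 3 in each library. The log2 fold change (MitoRNA over TotRNA) was 0.33 (SE 0.26, edgeR adjusted p = 0.394). At rank 8 the levels were 4232, 4754 and 4251 CPM in TotRNA and 3794, 3792 and 5003 CPM in MitoRNA, with the same rank in both means and a log2 fold change of 0.09 (SE 0.23). Ranks 11, 40 and 47 were also the same in both means. Rank 11 had 3925, 3972 and 4316 CPM in TotRNA and 3617, 3354 and 4423 CPM in MitoRNA. Rank 40 was narrow in TotRNA, at 1818, 1828 and 1782 CPM, and wider in MitoRNA, at 1452, 1895 and 2356 CPM. Rank 47 had 1751, 1607 and 1494 CPM in TotRNA and 1686, 1769 and 1817 CPM in MitoRNA. The groups overlapped in all 5. A p that misses the threshold does not show that these levels were equal, and with an SE of 0.20 to 0.26 for these 5 genes changes of small size would not be seen.

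The other core genes moved by a few places. Rank 3 had 8429, 7196 and 8383 CPM in TotRNA and 13739, 8758 and 9901 CPM in MitoRNA, where it stood at rank 2. All its MitoRNA levels lay above its TotRNA levels, but the log2 fold change of 0.59 (SE 0.28) missed the threshold (edgeR adjusted p = 0.166). Rank 12 was alike, with 3308, 3643 and 3933 CPM in TotRNA and 4763, 4132 and 4432 CPM in MitoRNA, where it stood at rank 7 (log2 fold change 0.45, SE 0.22, edgeR adjusted p = 0.183). Rank 4 rested in part on TotRNA replicate 3, with 4927, 5588 and 12789 CPM in TotRNA and 3142, 3825 and 5160 CPM in MitoRNA. Its groups overlapped, and it stood at MitoRNA rank 10. Ranks 6 and 10 lay at log2 fold changes of 0.06 (SE 0.27) and -0.00 (SE 0.25). Rank 6 had 7141, 6121 and 6042 CPM in TotRNA and 4761, 5602 and 7620 CPM in MitoRNA, and rank 10 had 4399, 4472 and 3419 CPM and 3312, 3206 and 4411 CPM, so that both overlapped.

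Others in the top 10 did not keep their level in every library. The gene at rank 2 owed its place to TotRNA replicate 1, with 18799 CPM there and 4833 and 3923 CPM in replicates 2 and 3. Its MitoRNA levels were 3881, 2304 and 807 CPM, all below the TotRNA levels, and its log2 difference of -1.84 (SE 0.74) did not pass the test (edgeR adjusted p = 0.115). Rank 5 had the same pattern, with 14688, 2593 and 2938 CPM in TotRNA and 1770, 846 and 588 CPM in MitoRNA (log2 fold change -2.52, SE 0.76, edgeR adjusted p = 0.0518). Both were also called lower by DESeq2 (adjusted p = 0.0176 and 0.0404) and in the authors' deposited table (adjusted p = 9.06e-05 and 7.14e-12), and neither by limma-voom (adjusted p = 0.127 and 0.0619). Without TotRNA replicate 1 their log2 fold changes were -0.73 and -1.20. Without the libraries numbered 1 of both groups they were -1.32 and -1.78, and both passed (edgeR adjusted p = 0.0265 and 0.000617). Both also passed in a fit with the replicate number as a block (edgeR adjusted p = 0.0147 and 0.0089). Rank 9 passed the test, with 5892, 4459 and 2309 CPM in TotRNA and 681, 1833 and 1323 CPM in MitoRNA, a fall by 1.56 on the log2 scale (SE 0.44, edgeR adjusted p = 0.0446). Leaving out any 1 library other than TotRNA replicate 3 ended this call, as did the replicate number as a block (edgeR adjusted p = 0.057). DESeq2 called it lower too (adjusted p = 0.0025), and the authors' deposited table gives an adjusted p of 0.102.

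**Figure D3:**
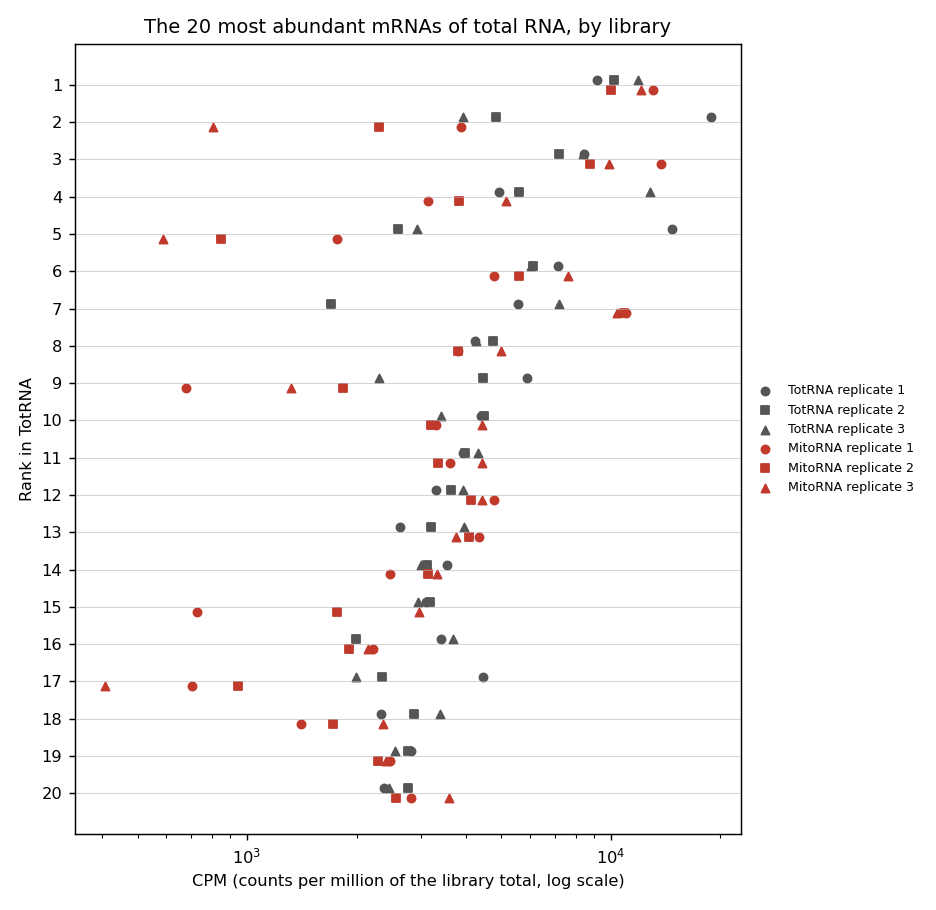
CPM (horizontal, log scale) of the 20 most abundant mRNAs of TotRNA in each library, TotRNA in grey and MitoRNA in red, with a symbol for each replicate. Without overlap, rows 2, 5, 9, 17 and 19 lie lower in MitoRNA and rows 3, 7 and 12 higher, and in row 7 TotRNA replicate 2 lies apart at 1699 CPM.

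Among the 200 mRNAs, 10 rose and 8 fell in MitoRNA by edgeR's quasi-likelihood test (adjusted p below 0.05 over all genes, n = 3 per group). That is 9.0% of them, where 18.8% of all listed genes were called, 5.66% higher and 13.1% lower. In the 200, 5.0% were higher and 4.0% lower, so the lower share was well under that of all genes. The choice of the 200 by their TotRNA level favours lower values in MitoRNA. Listing genes by at least 50 counts in every TotRNA library can favour lower calls among all genes too. How much each choice adds to the difference was not tested. The next 200 genes had 11 higher and 6 lower calls, a total of 8.5%. The median log2 fold change was 0.14 (quartiles -0.15 and 0.46) against 0.01 over all genes (quartiles -0.65 and 0.45), and 174 of the 200 lay within 2-fold (87.0%, against 77% of all genes). Fold changes were scaled by trimmed mean of M-values (TMM). With library size as the sole scaling the medians were -0.02 and -0.15, a shift of the same direction for both, and 6 genes were higher and 11 lower, where 2.81% and 15.7% of all genes were.

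The number of calls rested on single libraries. Without MitoRNA replicate 2, 0 of the 200 were called higher by edgeR (17 at an unadjusted p below 0.05) and 3 lower, where 0.876% and 6.79% of all genes were (7.67% in all). Without TotRNA replicate 1, 2 or 3 the higher calls were 1, 1 and 5, and the lower calls 6, 6 and 6. The same fits called 2.06%, 0.883% and 3.48% of all genes higher and 9.33%, 6.75% and 11.1% lower. Without MitoRNA replicate 1 the calls were 10 and 11, where 4.67% and 13.2% of all genes were called (17.9% in all), and without MitoRNA replicate 3 they were 7 and 9, where 5.57% and 11.7% were (17.2% in all). Without the libraries numbered 1 of both groups there were 19 higher and 14 lower calls, where 6.61% and 16.1% of all genes were called (22.7% in all). With the 200 genes chosen on 1 TotRNA library and tested without it, 2, 0 and 8 were called higher (choice on replicates 1, 2 and 3) and 7, 6 and 5 lower. That is 4.5%, 3.0% and 6.5% called, where 11.4%, 7.63% and 14.6% of all genes were called in the same fits. At an unadjusted p below 0.05, 18 of the genes chosen on replicate 2 were higher by edgeR. With all 6 libraries, 37 of the 200 and 2293 of all 15181 genes were higher by edgeR at that threshold. Such counts are thus common among all genes, and they were not counted over all genes in the fits without a library. The authors' deposited table has 45 of the 200 genes higher and 20 lower at an adjusted p below 0.05, and 16.4% and 21.4% of all genes (37.8% in all). DESeq2 called 30 higher and 13 lower, where it called 10.5% and 17.2% of all genes (27.7% in all), and limma-voom called 12 and 9, where it called 5.12% and 11.5% (16.6% in all).

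The calls were counted along the list. At ranks 1 to 20 edgeR called 0 genes higher (1 at an unadjusted p below 0.05, 1 by DESeq2 and 0 by limma-voom) and 2 lower. At ranks 21 to 50 it called 0 higher (4 unadjusted, 4 by DESeq2 and 1 by limma-voom) and 1 lower. At ranks 51 to 100 there were 4 higher and 1 lower, and in the last 100 genes there were 6 higher and 4 lower. At an adjusted p below 0.05, edgeR called 5.66% of all genes higher and 13.1% lower. DESeq2 called 10.5% of all genes higher and limma-voom 5.12%. Over all 15181 genes, 2293 were higher by edgeR at an unadjusted p below 0.05. Whether these groups of ranks differed from each other was not tested. All 18 called genes had groups that did not overlap. Over the 200, MitoRNA lay above TotRNA in all libraries in 33 genes and below in 25 by CPM, where 12.9% and 27.6% of all genes did so (40.5% in all). On the TMM scale it was 48 above and 16 below, where 19.7% and 22.9% of all genes did so (42.6% in all).

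The largest fall was that of a single, otherwise dominant mRNA. At rank 35 stood PGSC0003DMG400014487, with 1620, 2680 and 1328 CPM in TotRNA and 12.3, 29.8 and 24.4 CPM in MitoRNA. All 3 MitoRNA libraries lay far below every TotRNA library, at 283, 381 and 849 counts, and the gene went from rank 35 to rank 6123. It fell by 6.23 on the log2 scale (SE 0.46, edgeR adjusted p = 0.000645), that is 75-fold. No other gene of the 200 was called more than 4.69-fold lower. It kept its call under all 14 alternatives, with log2 fold changes of -6.47 to -5.94, and the authors' deposited table gives -6.0. Of these 14, here and below, leaving out the low-count filter repeats the main fit, because the filter removed 0 genes.

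The other falls were smaller and ended at ranks still within the upper part of the listed genes. Rank 84 (PGSC0003DMG400010143) had 1671, 768 and 804 CPM in TotRNA and 180, 246 and 199.4 CPM in MitoRNA, a 4.69-fold fall (log2 fold change -2.23, SE 0.36, edgeR adjusted p = 0.00562) to rank 970. Rank 17 had 4440, 2351 and 1999 CPM in TotRNA and 706, 942 and 408 CPM in MitoRNA, where it stood at rank 214. It fell by 1.95 on the log2 scale (SE 0.41, edgeR adjusted p = 0.0162). These genes and the one at rank 35 were the 3 of the 18 whose call held under all 14 alternatives. Rank 108 had 1201, 1083 and 481 CPM in TotRNA and 166, 206 and 264 CPM in MitoRNA. Rank 113 had 1094, 801 and 793 CPM in TotRNA and 427, 322 and 292 CPM in MitoRNA. These genes fell to ranks 949 and 557, with log2 fold changes of -1.95 and -1.21, and both calls were lost only without MitoRNA replicate 2. In MitoRNA rank 188 was spread over 60.6, 145 and 300 CPM, against 648, 734 and 605 CPM in TotRNA. Rank 196 had 619, 553 and 739 CPM in TotRNA and 356, 257 and 201.7 CPM in MitoRNA. The genes at ranks 188 and 196 fell by 1.8 and 1.08 on the log2 scale to MitoRNA ranks 1211 and 727, and 4 and 5 of the 14 alternatives ended these calls.

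The largest rise took an mRNA from the middle of the list to near the top. The gene at rank 64 (PGSC0003DMG400031495) had 1362, 451 and 2349 CPM in TotRNA and 7669, 8064 and 4630 CPM in MitoRNA, where it stood at rank 4. Every MitoRNA library lay above every TotRNA library, and the rise was of 2.41 on the log2 scale (SE 0.58, edgeR adjusted p = 0.0259), that is 5.32-fold. The adjusted p was 0.0664 without TotRNA replicate 1 and 0.0795 without MitoRNA replicate 2. Rank 124 (PGSC0003DMG400017433) rose 2.45-fold to rank 44, from 742, 816 and 939 CPM to 2533, 1776 and 1184 CPM (log2 fold change 1.29, SE 0.30, edgeR adjusted p = 0.0239). Its adjusted p was above 0.05 without MitoRNA replicate 2, TotRNA replicate 1 or TotRNA replicate 2.

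The remaining 8 rises were of 1.61-fold to 2.44-fold. Rank 52 had 1784, 1480 and 1383 CPM in TotRNA and 3025, 3035 and 2827 CPM in MitoRNA, with little spread in either group, and rose 2.13-fold to rank 16 (log2 fold change 1.09, SE 0.22, edgeR adjusted p = 0.0133). Rank 165 rose 2.44-fold to rank 55, from 672, 602 and 906 CPM to 2273, 1405 and 1126 CPM. Rank 98 rose 1.88-fold to rank 52, from 819, 1013 and 1103 CPM to 1391, 1752 and 1792 CPM. The smaller rises had little spread, and that at rank 76 was from 1090, 1196 and 1123 CPM to 1678, 1719 and 1654 CPM. Those at ranks 76, 114, 134, 164 and 195 rose 1.61-fold to 1.76-fold and reached MitoRNA ranks 50, 73, 74, 94 and 109. Each of these 8 calls was lost in 2 to 8 of the 14 alternatives. The direction of all 18 called genes was kept in all 14. As their groups did not overlap, leaving out libraries could hardly turn it, so this is no separate support.

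**Figure D4:**
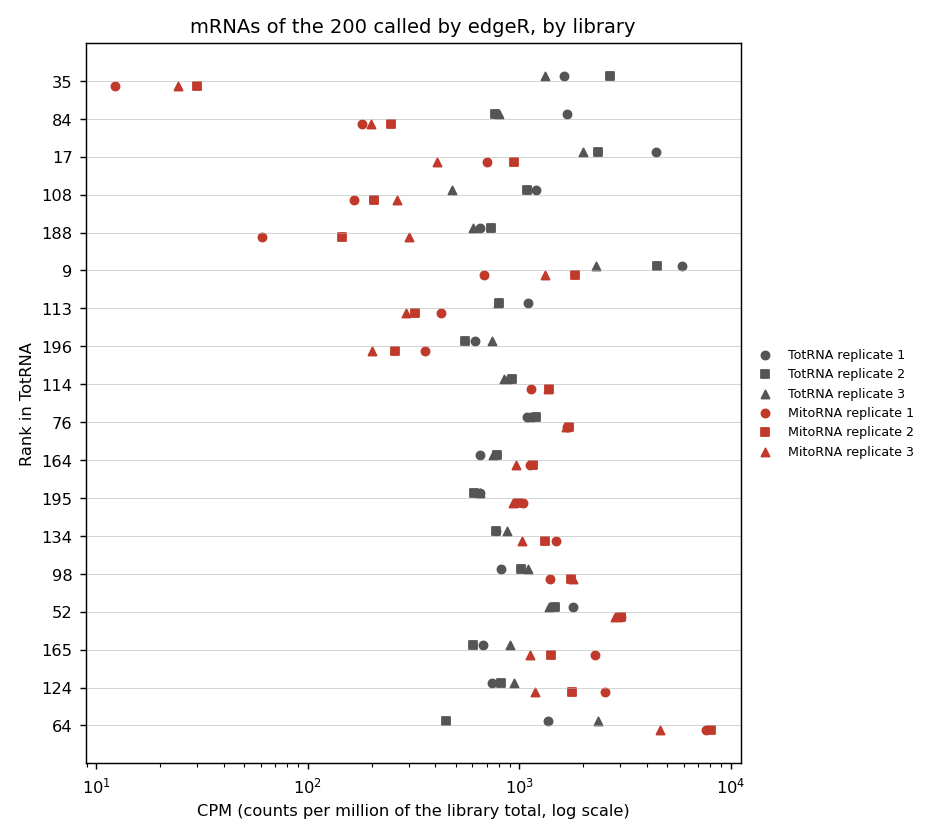
CPM (horizontal, log scale) in each library of the 18 genes called by edgeR, ordered from the largest fall to the largest rise and labelled by TotRNA rank, TotRNA in grey and MitoRNA in red. No row has overlapping groups, and the gap at rank 35 exceeds that of every other row.

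A number of the dominant mRNAs varied strongly between replicates of the same kind of RNA. The median coefficient of variation of CPM over the 200 was 18% in TotRNA and 22.2% in MitoRNA, against 22.4% and 25.2% over all genes, so as a body they did not vary more. In 42 of the 200 genes, 1 library lay over 2-fold above or below both others of its kind, a pattern looked for after the values were seen. In TotRNA replicate 1, 12 genes stood above both others (6.0%, against 3.58% of all genes) and 5 below (2.5% against 4.39%). In MitoRNA replicate 1, 11 stood above (5.5% against 7.35%) and 15 below (7.5% against 8.53%). TotRNA replicate 2 had 0 above and 9 below (4.5% against 0.955%), and TotRNA replicate 3 had 2 above and 7 below (3.5% against 2.08%). MitoRNA replicate 2 had 0 of either kind, and MitoRNA replicate 3 had 3 above and 6 below (3.0% against 2.67%).

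Such deviations were often found in the library of the same number in the other kind of RNA. Of the 12 genes above in TotRNA replicate 1, 10 were also highest in replicate 1 among the MitoRNA libraries, and of the 5 below, 4 were also lowest there. Of those in MitoRNA replicate 1, 9 of 11 above and 10 of 15 below had TotRNA replicate 1 as the highest or lowest. In the libraries numbered 3, 6 of 7 below in TotRNA were lowest in MitoRNA too, 5 of 6 below in MitoRNA were lowest in TotRNA too, and those above did so in 1 of 2 and 0 of 3. Of the 9 below in TotRNA replicate 2, 4 were lowest in MitoRNA replicate 2. These counts are not separate, because the same genes recur in them. Ranks 31, 99, 111 and 176 stood above in both libraries numbered 1 and below in both numbered 3. The counts were not set beside a share over all genes, and some matches of number arise by chance. The 12 genes above in TotRNA replicate 1 held 6.03% of the counts of TotRNA replicate 1 and 1.13% to 1.25% of the other TotRNA libraries. In 4 of them TotRNA replicate 1 was 9.23-fold to 20.7-fold above the higher of the other libraries. Rank 31 had 5263, 491 and 172 CPM in TotRNA and 965, 164 and 52.2 CPM in MitoRNA, and rank 99 had 2747, 133 and 52.4 CPM and 459, 52.2 and 11.7 CPM. Ranks 111 and 176 followed the same order of libraries. In all 4 MitoRNA lay below TotRNA in the libraries of each number, while the groups as a whole overlapped. Their log2 fold changes of -2.36 to -2.19 did not pass the test (edgeR adjusted p of 0.241 to 0.331). Without the libraries numbered 1 of both groups they were -1.43, -1.36, -0.95 and -1.13 (ranks 31, 99, 111 and 176), and rank 31 passed (edgeR adjusted p = 0.042). In a fit with the replicate number as a block all 4 were called lower (edgeR adjusted p of 0.00816 to 0.0446). The authors' deposited table has ranks 31, 99 and 176 lower (adjusted p = 0.000477, 0.0259 and 0.0454) and gives 0.0526 for rank 111. By mean CPM these genes stood at MitoRNA ranks 481 to 1442.

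The opposite pattern was most marked in the gene at rank 116. It had 6.26 CPM in TotRNA replicate 1 and 1403 and 1235 CPM in replicates 2 and 3, and 7.46 CPM in MitoRNA replicate 1 and 1731 and 1784 CPM in replicates 2 and 3. In both kinds of RNA it was thus at least 197-fold lower in the library numbered 1 than in either other one, while the kinds of RNA overlapped (log2 fold change 0.60, SE 1.70, edgeR adjusted p = 0.83). The labels do not say what the libraries numbered 1 have in common, and its part in these results was not tested.

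The 9 genes below in TotRNA replicate 2, at less than 50% of both other TotRNA libraries, include 3 of those above in a library numbered 1 (ranks 21, 90 and 140). In 6 others of the 9 all 3 MitoRNA libraries lay above all 3 TotRNA libraries. They were the genes at ranks 7, 27, 50, 64, 107 and 139, and they include the largest rise of the 200. Rank 7 had 5572, 1699 and 7183 CPM in TotRNA and 11033, 10854 and 10383 CPM in MitoRNA, where it stood at rank 3. Rank 27 had 2361, 806 and 3173 CPM in TotRNA and 6112, 4478 and 6191 CPM in MitoRNA, where it stood at rank 6. Both were tight in MitoRNA and wide in TotRNA. By edgeR rank 64 passed the test, and the other 5 had log2 fold changes of 1.21 to 1.57 with adjusted p of 0.0595 to 0.113. DESeq2 called all 6 higher (adjusted p up to 0.0318), as did the authors' deposited table (adjusted p up to 0.0212), and limma-voom called ranks 27, 64 and 107. Without TotRNA replicate 2 the log2 fold changes of the 6 were 0.82 to 1.97, where the choice of genes without overlap fixes the direction. Those at ranks 50, 107 and 139 stood at MitoRNA ranks 13, 20 and 51.

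**Figure D5:**
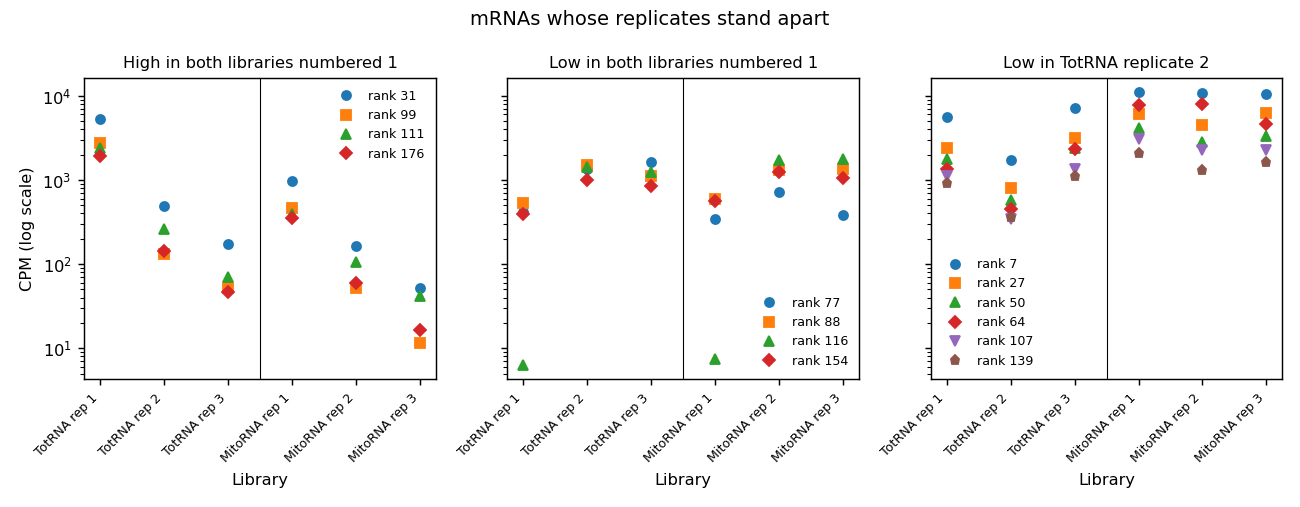
CPM (vertical, log scale) in each library, TotRNA left and MitoRNA right of the line in each panel, labelled by TotRNA rank. The left panel shows genes high in both libraries numbered 1, and the right panel genes low in TotRNA replicate 2. The middle panel shows genes below in TotRNA replicate 1 that were also lowest in MitoRNA replicate 1. At rank 77 the MitoRNA difference was small, with 344 CPM in replicate 1 and 378 CPM in replicate 3. Rank 116 lies below 10 CPM in both libraries numbered 1, and the 6 genes of the right panel lie lowest in TotRNA replicate 2.

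The places of the 47 genes that left were taken by 47 others, nearly all from just below the list. Of these, 43 stood between TotRNA ranks 200 and 400, 3 between ranks 400 and 1000 and 1 beyond rank 1000, and their median TotRNA rank was 252. They held 4.12%, 4.31% and 3.52% of MitoRNA and 2.20%, 2.34% and 2.75% of TotRNA, while the genes that left held 2.13%, 2.13% and 2.46% of MitoRNA and 5.13%, 3.59% and 3.44% of TotRNA. The directions follow from how both sets were chosen. By edgeR at an adjusted p below 0.05, 10 of the 47 that entered were called higher, where 5.66% of all genes were. Of the 47 that left 7 were called lower, where 13.1% of all genes were. Both sets were picked on the levels that this test uses, so the counts follow in part from the choice. The highest entry came from TotRNA rank 14510 and reached MitoRNA rank 18, with 1.19, 1.76 and 2.09 CPM in TotRNA and 2055, 5168 and 1086 CPM in MitoRNA. The next entry reached rank 106. The gene at TotRNA rank 912 had 102, 262 and 279 CPM in TotRNA and 330, 1169 and 1191 CPM in MitoRNA, where it stood at rank 128 (log2 fold change 2.23, SE 0.55, edgeR adjusted p = 0.028).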

How the data were processed

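The members and comparisons were chosen with earlier results of these data known. DESeq2, HTSeq 0.5.4p3, TopHat2 2.0.8b with Bowtie2 2.1.0, and CASAVA 1.8.2 are named in the submitters' processing notes. Genome build, annotation and strand setting: not given in the sources used here. The deposited tables hold raw read counts per gene, and hold no unassigned reads. A comparison deposited by the authors gives a mean normalised signal, log2 fold changes with standard errors, a Wald score and p-values.

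Here counts were divided by the library total of listed genes (CPM) to choose, rank and print levels. Counts were tested over all 15181 genes with edgeR 4.0.16 (R 4.3.3, limma 3.58.1): TMM scaling, filterByExpr (0 genes removed), quasi-likelihood F tests, p-values adjusted by Benjamini and Hochberg. The SE equals the absolute log2 fold change over sqrt(F). Groups came from sample titles. Data were simulated with 15181 genes at the trended dispersion, 100 of them changed 2-fold and 100 changed 4-fold. Calls were made for 6 of 100 genes with a 2-fold change, for 84 of 100 with a 4-fold change and for 6 genes with none. In the data 18.8% of all genes were called, far more than were changed in the simulation, so its recovery need not hold for these data. Shares per library were compared by exact permutation. Alternatives were other scalings, DESeq2 1.42.0, limma-voom, a replicate block, other list sizes, choice on 1 TotRNA library, leaving out each library and, added after seeing the data, leaving out both libraries numbered 1.

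Genes named are the 10 highest, the called ones without overlap (up to 10 each way), those beside the threshold, the highest entries and 5 of ranks 1 to 50 with the smallest shift of rank; genes named for replicates that stand apart were chosen after their values were seen. IDs are printed for 2 rises and 2 falls.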

Additional observations from a re-analysis of the deposited data

How the results depend on the processing

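DESeq2 called 30 of the 200 genes higher and 13 lower, where it called 10.5% and 17.2% of all genes. Library size alone gave 6 higher, where 2.81% of all genes were. The low-count filter removed 0 genes, so leaving it out tested nothing. With 100 genes the calls were 4 higher and 4 lower, with 79 kept in the MitoRNA top 100, and with 400 genes 21 and 14, with 328 kept, as the list size sets. These calls are of the main fit, where 5.66% of all genes were higher and 13.1% lower. With genes chosen on TotRNA library 1 or 2 alone 2 and 0 were higher, and on library 3 alone 5 were lower. The same fits called 2.06% and 0.883% of all genes higher, and 11.1% lower without TotRNA replicate 3. Leaving out the libraries numbered 1 of both groups gave 19 higher and 14 lower, where 6.61% and 16.1% of all genes were called. Leaving out 1 library gave 0 to 10 higher and 3 to 11 lower calls. In those fits 0.876% to 5.57% of all genes were called higher and 6.75% to 13.2% lower. It also gave 147 to 157 genes kept in the MitoRNA top 200. The difference in their share was -1.69 to 0.89 percentage points, and that in the own top 200 was 0.17 to 2.89. The causes were not tested.

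With the replicate number as a block, 22 genes were higher and 15 lower, where 6.68% and 13.9% of all genes were. Ranks 31, 99, 111 and 176 were then called lower, at log2 fold changes of -1.76, -1.88, -1.38 and -1.58 (edgeR adjusted p = 0.00816, 0.0102, 0.0446 and 0.0151), as were ranks 2 and 5 (0.0147 and 0.0089). Ranks 27, 50, 107 and 139 were called higher (0.0167, 0.0352, 0.0272 and 0.0243), rank 7 was not (0.051), and the call at rank 9 was lost (0.057). The labels do not say what libraries of the same number share, so the main fit did not pair them. Deviations from group means correlated over all genes at 0.44, 0.45 and -0.05 for libraries numbered 1, 2 and 3. Over the 200 genes they correlated at 0.75, 0.69 and 0.48, but MitoRNA replicate 3 correlated at 0.61 with TotRNA replicate 2. Whether the numbers pair samples was not tested.

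Of the top 10, log2 fold changes near 0 turned sign. At rank 6 (main value 0.06) they were -0.10 with library size alone, -0.17 without MitoRNA replicate 3 and -0.022 without TotRNA replicate 2, and up to 0.20 without another library. At rank 8 they were -0.072 with library size alone, -0.074 without MitoRNA replicate 3 and up to 0.18 without another library. At rank 10 they were 0.14 without both libraries numbered 1 and -0.18 to 0.10 without 1 library, above 0 without MitoRNA replicate 1 or 2 or TotRNA replicate 1 or 2. Counting depth limits none of these values. Their signs changed with the libraries kept at ranks 6, 8 and 10, and with the scaling at ranks 6 and 8. What limits them was not tested.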

Other observations

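Of the next 200 genes, down to TotRNA rank 400, edgeR called 11 higher and 6 lower at an adjusted p below 0.05. Their log2 fold changes had a median of 0.32 and quartiles of -0.04 and 0.56. They held 10.6%, 11.1% and 11.3% of MitoRNA and 9.60%, 9.98% and 10.6% of TotRNA. Of the 600 genes after these, down to rank 1000, 47 were called higher and 51 lower, at a median of 0.23 on the log2 scale. Calls were thus 8.5% of the first and 16.3% of the second group. Over all listed genes 18.8% were called, 5.66% higher and 13.1% lower. Whether these shares differ was not tested.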
